A study of Mus musculus with 4 samples.

Results

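Thyroid hormone circulates mostly as thyroxine, a precursor with little activity of its own. Transporters bring it into cells, where the type 2 deiodinase removes an iodine atom to give triiodothyronine, the active form, and this binds nuclear receptors that sit on DNA with retinoid X receptors as partners. Skin and hair follicles are known targets of the hormone, and its lack thins the hair coat. The genes described here cover activation of the hormone (Dio2 and Dio1), its transport (Slc16a10 and Slco1c1), its receptors (Thra and Thrb), their partners (Rxra and Rxrb) and a hormone-responsive gene (Thrsp). They were selected on their role in this pathway with differences of the same comparison in view, so their values are given as a description, with no test. All 9 genes were measured, each by 1 probe set that names that gene alone, among 19938 genes in all.

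The cells were dermal papilla cells, a mesenchymal cluster under the hair matrix of each follicle, taken from mouse skin at postnatal day 5. They were sorted for green fluorescence from Sox2GFP together with integrin alpha 9, from animals with a conditional knockout of the transcription factor gene Sox2 (cKO, 2 arrays) and from Sox2 heterozygous animals (Het, 2 arrays). Both groups thus went through the same fluorescent sort, and the Het animals were not wild type. The labels call the 2 arrays of each group biological replicates. The sources used here do not name the Cre driver or the alleles beside Sox2GFP, nor say whether a replicate was 1 animal or a pool. How much of the spread between replicates is technical is therefore not known. The sort also limits what the comparison can show, because cells without the fluorescence were not collected. Values are on the log2 scale and relative to the median of the 4 arrays in each probe set. They hold differences between arrays and no expression level, so presence of a transcript cannot be read from them, and neither can the identity of the sorted cells be checked against their markers. In such a bulk sample, fewer cells of a type and less RNA per cell cannot be told apart.

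Sox2, the targeted gene, stood at -0.87 and -0.94 in cKO replicates 1 and 2, against 0.96 and 0.87 in Het replicates 1 and 2. The log2 difference (cKO minus Het) came to -1.81 ± 0.06, the error being the standard error of the limma fit, abbreviated SE throughout, with n = 2 arrays in each group. Where its probe set lies relative to the deleted part was not examined. Limma's test over all genes called 0 of 19938 at an adjusted p of 0.05, a background of 0%, and 1053 lay under an unadjusted p of 0.05, which is 5.28%.

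Dio2 had the largest difference of the 9 genes and was higher in cKO. It encodes the type 2 deiodinase, the enzyme that makes active hormone inside the cell. Dio2 stood at 0.33 and 0.45 in cKO replicates 1 and 2, against -0.33 and -0.51 in Het replicates 1 and 2. Both cKO arrays thus lay above both Het arrays, with 0.66 between the lowest cKO and the highest Het array. The group means were 0.39 ± 0.09 in cKO and -0.42 ± 0.13 in Het (SD, n = 2 each). The difference of 0.81 ± 0.09 (SE) was a 1.75-fold higher value in cKO. Array by array, cKO replicate 1 exceeded Het replicates 1 and 2 by 0.66 and 0.84, and cKO replicate 2 exceeded them by 0.78 and 0.96. Arrays of the same group differed by 0.12 in cKO and by 0.18 in Het, so each of the 4 differences between groups was larger than either difference within a group. Among all 19938 genes, the difference of Dio2 ranked 11 from the highest, and 5 genes, Dio2 included, had a gap between the groups at least as wide in the same direction. With any single array left out the difference lay between 0.72 and 0.90.

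**Figure D1:**
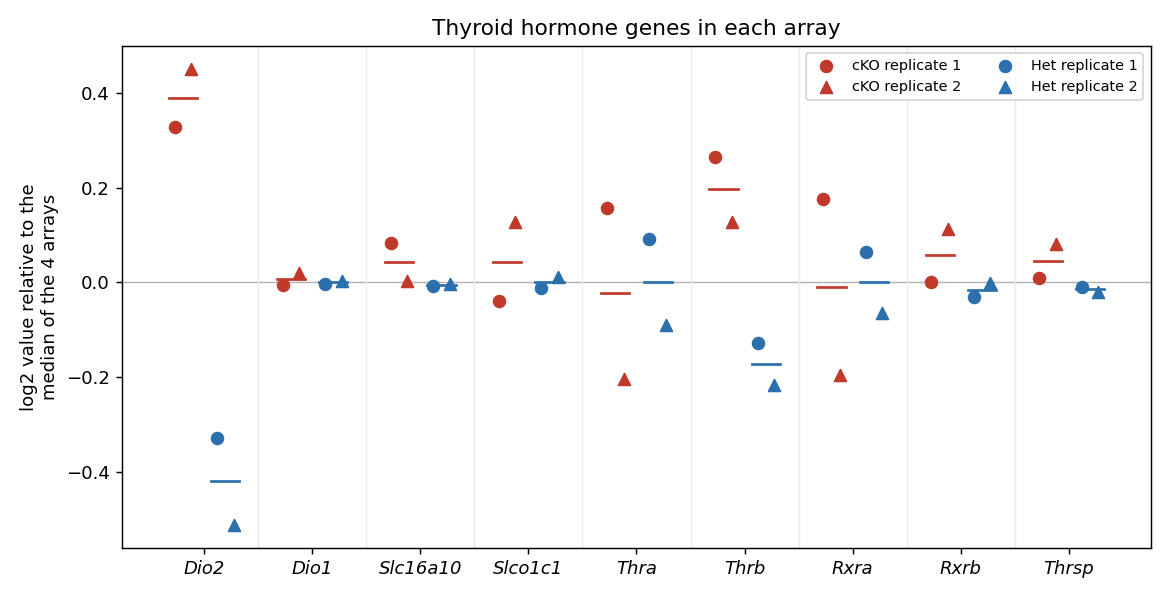
Log2 values of the 9 thyroid hormone genes, relative to the median of the 4 arrays, in each cKO array (red, left of each pair) and each Het array (blue, right); circles are replicate 1, triangles replicate 2 and short lines the group means. Dio2 and Thrb show both cKO arrays clearly above both Het arrays, whereas Thra and Rxra have both replicates 1 above both replicates 2.

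The sequence before the Dio2 start is shown because Dio2 carries the main difference, and it holds a cyclic AMP response element, a motif bound by CREB factors. Dio2 is known from brown fat to be induced by cyclic AMP. The sequence is from RefSeq, GRCm38.p6, chr12:90739039-90739288 on the minus strand, and ends at the base before the annotated start. Capitals mark 2 motif matches: TGACGTCA from 95 to 88 bases before the start, and TATAAA, the motif of a TATA box, from 30 to 25 bases before it. The Dio1 sequence, chr4:107307169-107307418 on the minus strand of the same build, is set beside it as the other outer-ring deiodinase, and its capitals mark AACAAAG, a form of the SOX motif, from 176 to 170 bases before the start.
Dio2: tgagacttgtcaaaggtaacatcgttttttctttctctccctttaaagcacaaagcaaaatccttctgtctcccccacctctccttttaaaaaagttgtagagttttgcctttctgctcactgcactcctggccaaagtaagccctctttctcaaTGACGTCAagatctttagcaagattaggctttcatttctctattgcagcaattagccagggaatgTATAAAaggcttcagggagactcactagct
Dio1: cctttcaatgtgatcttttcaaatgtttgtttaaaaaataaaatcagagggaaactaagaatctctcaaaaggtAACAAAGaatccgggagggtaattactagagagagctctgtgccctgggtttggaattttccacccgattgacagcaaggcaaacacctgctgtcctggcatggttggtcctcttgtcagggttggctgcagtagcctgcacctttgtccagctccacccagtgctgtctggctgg

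Motifs were searched on both strands in the 250 bases before each annotated start, over 32851 RefSeq promoters. TGACGTCA, which reads the same on both strands, occurred in 1.55% of them and TATAAA in 12.4%. The SOX motifs AACAAT and AACAAAG occurred in 9.42% and 5.03%, and AGGTCA, the half-site of nuclear receptors including those for thyroid hormone, in 14%. None of the matches in Dio2 overlapped another. The Dio2 window held no match to AACAAT or to AACAAAG, nor one to AGGTCA, which says only that these letters are absent from these 250 bases. A match is a stretch of letters and was not tested as a binding site.

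Dio1, the deiodinase best known from liver and kidney, barely varied. It stood at -0.0061 and 0.019 in cKO replicates 1 and 2, against -0.0025 and 0.0025 in Het replicates 1 and 2. The groups overlapped, and the difference was 0.0066 ± 0.036 (SE), and it was -0.0061 without cKO replicate 2. Its range over the 4 arrays was 0.025, and 97.3% of all genes had a larger one. With no expression level in the values, a gene that is silent in these cells and one that is expressed evenly cannot be told apart.

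Thrb had the next largest difference and was also higher in cKO. It encodes the beta receptor for thyroid hormone, which in the mouse serves hearing, cone photoreceptors and feedback on the pituitary. Thrb stood at 0.27 and 0.13 in cKO replicates 1 and 2, against -0.13 and -0.22 in Het replicates 1 and 2. The groups did not overlap, with 0.25 between the lowest cKO and the highest Het array. The group means were 0.20 ± 0.10 in cKO and -0.17 ± 0.06 in Het (SD, n = 2 each). The difference of 0.37 ± 0.07 (SE) was a 1.29-fold higher value in cKO. It ranked 136 from the highest of all genes, and 46 genes, Thrb included, had a gap at least as wide in the same direction. The smallest of the 4 differences between single arrays of the groups was 0.25, against 0.14 between the cKO arrays and 0.09 between the Het arrays. With any single array left out the difference lay between 0.30 and 0.44.

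Thrb has 2 annotated starts in RefSeq that lie 320684 bases apart, and both sequences are shown because the array has 1 probe set for the gene, so its value cannot be assigned to either start. The upstream one is chr14:17660710-17660959 and the downstream one chr14:17981394-17981643, both GRCm38.p6 and on the plus strand. Capitals mark AGGTCA from 184 to 179 bases before the upstream start and TATAAA from 167 to 162 bases before the downstream start. The upstream sequence was 71.6% G or C and the downstream one 44.0%, against a median of 52.4% over all promoters.
Thrb upstream start: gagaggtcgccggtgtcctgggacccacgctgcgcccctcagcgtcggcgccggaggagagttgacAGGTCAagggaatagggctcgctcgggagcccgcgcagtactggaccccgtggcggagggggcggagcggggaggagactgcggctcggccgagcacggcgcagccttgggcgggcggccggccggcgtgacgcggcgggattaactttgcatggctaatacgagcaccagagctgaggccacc
Thrb downstream start: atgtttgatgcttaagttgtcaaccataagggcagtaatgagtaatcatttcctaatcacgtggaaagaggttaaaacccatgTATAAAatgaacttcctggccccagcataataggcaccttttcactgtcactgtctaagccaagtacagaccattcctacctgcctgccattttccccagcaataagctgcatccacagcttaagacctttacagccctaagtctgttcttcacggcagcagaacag

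Thra, which encodes the alpha receptor, did not follow Thrb. It stood at 0.16 and -0.20 in cKO replicates 1 and 2, against 0.09 and -0.09 in Het replicates 1 and 2. The groups overlapped fully, with the highest and the lowest array both in cKO. The difference was -0.02 ± 0.16 (SE), and it was -0.20 without cKO replicate 1 and 0.16 without cKO replicate 2. The spread within groups was wide, since 11.2% of all genes had a larger SD between the arrays of a group. In the RefSeq gene table Thra overlaps Nr1d1, a clock repressor gene known to be read from the opposite strand, by 1075 bases. Nr1d1 itself stood at 0.07 and -0.14 in cKO replicates 1 and 2, against -0.04 and 0.04 in Het replicates 1 and 2.

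The retinoid X receptors pair with the thyroid hormone receptors and with several other nuclear receptors. Rxra ran like Thra, at 0.18 and -0.20 in cKO replicates 1 and 2, against 0.06 and -0.06 in Het replicates 1 and 2. Its groups overlapped, the difference was -0.0097 ± 0.15 (SE), and it was -0.20 without cKO replicate 1 and 0.18 without cKO replicate 2. In both Thra and Rxra the 2 arrays numbered 1 lay above the 2 arrays numbered 2. Rxrb stood at 0.00056 and 0.11 in cKO replicates 1 and 2, against -0.031 and -0.00056 in Het replicates 1 and 2. Its groups did not overlap, but only 0.0011 lay between them, and the difference was 0.07 ± 0.06 (SE).

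Both transporter genes had group means close to each other. Slc16a10, which encodes a carrier of triiodothyronine and aromatic amino acids, stood at 0.083 and 0.0032 in cKO replicates 1 and 2, against -0.0074 and -0.0032 in Het replicates 1 and 2. The groups were separated by 0.0065 and the difference was 0.05 ± 0.05 (SE). Slco1c1, which encodes a thyroxine carrier best known from brain capillaries, stood at -0.04 and 0.13 in cKO replicates 1 and 2, against -0.012 and 0.012 in Het replicates 1 and 2. Its groups overlapped and the cKO arrays differed by 0.17, more than the median range of 0.14 over the 4 arrays among all genes. The difference was 0.04 ± 0.07 (SE), and it was -0.04 without cKO replicate 2. Thrsp encodes a nuclear protein of fat synthesis that thyroid hormone induces in liver. It stood at 0.0098 and 0.08 in cKO replicates 1 and 2, against -0.0098 and -0.019 in Het replicates 1 and 2. Its groups were separated by 0.020, and the difference was 0.06 ± 0.04 (SE).

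**Figure D2:**
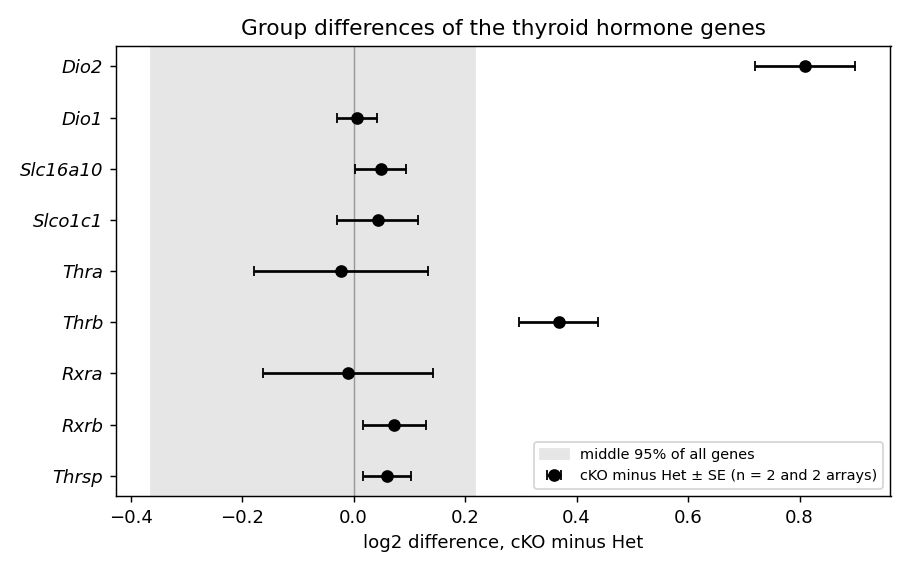
Log2 difference, cKO minus Het, of each of the 9 genes with the standard error of the fit (n = 2 arrays per group), over a grey band that holds the middle 95% of the differences of all genes. Dio2 at 0.81 and Thrb at 0.37 lie to the right of the band, and the other 7 lie inside it.

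Counted together, 5 of the 9 genes had groups that did not overlap, all 5 with cKO above Het, while 33.5% of all genes had separated groups in either direction and 17.8% with cKO above. Of these 5 genes, 3 had a gap under 0.04 between the groups, so the count says little beside the sizes. The count was 9 of 9 without either cKO replicate 1 or cKO replicate 2, and 5 without either Het array. In each of the 4 genes with overlapping groups, both Het values lay between the 2 cKO values. Leaving out either cKO array must therefore separate them, so the 9 of 9 carries no information. The shares of all genes given here are for 4 arrays and cannot be set beside it. By size, 1 of the 9, Dio2, was at least 1.5-fold apart with separated groups, against 0.647% of all genes in either direction and 0.12% with cKO above. The values of this comparison were known when the genes were chosen, so nothing is read from these counts. The median difference was 0.05 over the 9 genes and 0.0034 over all genes. The differences of 95% of all genes lay between -0.36 and 0.22, and Dio2 and Thrb were the 2 of the 9 outside that range.

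The genes differed in the size of the difference and in the spread within groups. The pooled SD between arrays of a group was 0.11 for Dio2 and 0.08 for Thrb, against a median of 0.06 over all genes. Thra and Rxra had the widest spread of the 9 genes, at 0.20 each, with differences near 0. The remaining 5 genes had an SD between 0.013 for Dio1 and 0.084 for Slco1c1, and none of their differences exceeded that of Rxrb.

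**Figure D3:**
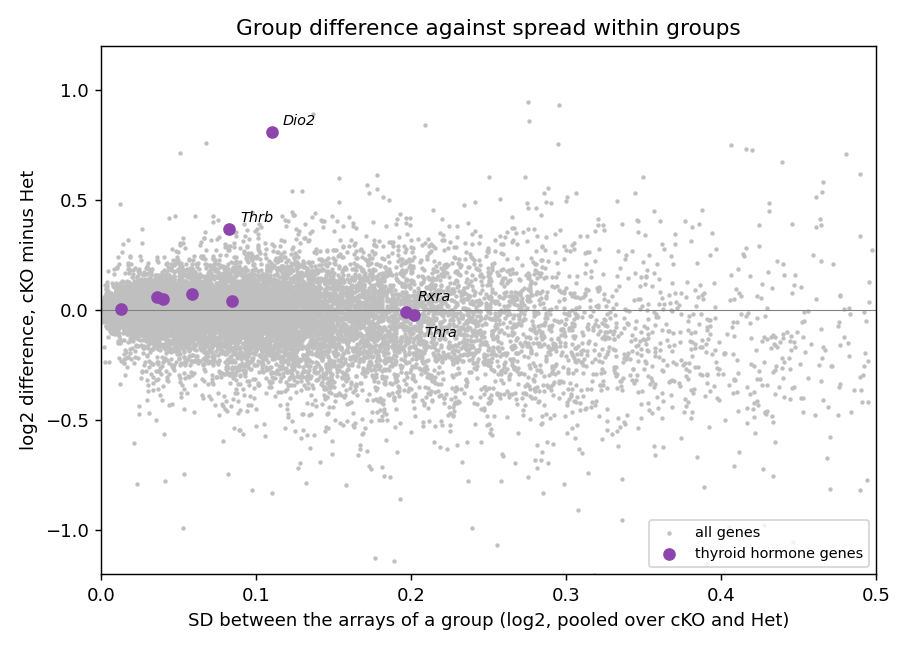
Log2 difference, cKO minus Het, against the SD between the arrays of a group (pooled over cKO and Het) for the 9 thyroid hormone genes (purple) and all genes (grey); 137 genes fall outside the axes. Dio2 stands high at an SD of 0.11, and Thra and Rxra lie near 0 at an SD of 0.20. The unlabelled purple points, at an SD of 0.013 to 0.084, are the other 5 genes.

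Other genes of the pathway were taken from 7 lists by function, which were written with earlier results of these data known. Of 75 measured genes, 32 had a positive and 43 a negative difference, and the median difference was -0.0079. Over all genes 52.3% had a positive difference, the share to set beside the sign counts of each list. None of the 75 passed limma's test adjusted over all genes (0 of 75), and 3 lay under an unadjusted p of 0.05, with 1 higher and 2 lower in cKO, against 5.28% of all genes; with 1 array left out this count lay between 1 and 8. The groups did not overlap in 16 of the 75 genes, 9 with cKO above and 7 with cKO below, a smaller share than the 33.5% of all genes with separated groups. At least 1.5-fold with separated groups was reached by 0 of the 75, against 0.647% of all genes. The 75 differences ran from -0.45 to 0.43, so none was as large as that of Dio2.

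Genes that act on the Dio2 gene or protein had differences of both signs. Wsb1, which encodes the ubiquitin ligase adaptor that recognises the type 2 deiodinase, stood at 0.26 and 0.055 in cKO replicates 1 and 2, against -0.055 and -0.16 in Het replicates 1 and 2. Its groups did not overlap and its difference was 0.26 ± 0.09 (SE). Ube2g2, a ubiquitin-conjugating enzyme gene, was at -0.054 and -0.097 in cKO replicates 1 and 2, against 0.18 and 0.054 in Het replicates 1 and 2, a difference of -0.19 ± 0.06. Marchf6, which encodes a membrane ubiquitin ligase of the same turnover route, had a difference of 0.18 ± 0.16 with overlapping groups. Of the 9 genes of this list, 5 had groups that did not overlap, 1 with cKO above and 4 with cKO below, against 33.5% of all genes separated and 17.8% with cKO above, and the median was -0.02. Crem and Creb1, genes of the cyclic AMP response, were named here for their role after their values were seen. Crem had a difference of -0.06 ± 0.04 (SE) with separated groups, and Creb1 one of -0.02 ± 0.05 with overlapping groups.

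Selenoprotein synthesis supplies the selenocysteine of the deiodinases. Of 7 genes 6 had a negative difference, while 52.3% of all genes had a positive one. Only 1 of the 7 had groups that did not overlap, against 33.5% of all genes. The largest difference of the list was that of Trnau1ap, the separated gene, which encodes a partner of the selenocysteine transfer RNA and had a difference of -0.23 ± 0.08 (SE). Secisbp2l and the kinase gene Pstk were at -0.15 ± 0.16 and -0.15 ± 0.15, both with overlapping groups. The hormone transport list had 5 of 9 genes with a positive difference, and its largest, Slco1a4, an organic anion carrier gene, was at 0.06 ± 0.04. Slco4a1 of the same family was at -0.05 ± 0.07, and Slc3a2, the shared chain of amino acid carriers, at 0.04 ± 0.08.

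Among binding and disposal genes 3 of 7 had a positive difference, and 0 of 7 had separated groups, against 33.5% of all genes. Crym, which encodes a cytosolic triiodothyronine binder, was at -0.10 ± 0.07, Alb at 0.06 ± 0.06, and Iyd, which recovers iodide, at -0.05 ± 0.05. Dio3, the deiodinase that inactivates the hormone, was named for its role after its value was seen. It stood at -0.028 and 0.021 in cKO replicates 1 and 2, against -0.021 and 0.041 in Het replicates 1 and 2, so the groups overlapped.

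The receptor partners and coregulators had 7 of 13 genes with a positive difference. Med1, a Mediator subunit first described as a partner of the thyroid hormone receptor, was the largest. It stood at 0.13 and 0.34 in cKO replicates 1 and 2, against -0.26 and -0.13 in Het replicates 1 and 2. The groups did not overlap, and the difference of 0.43 ± 0.10 (SE) did not pass limma's test (adjusted p = 0.934). The coactivator gene Ncoa3 had a difference of 0.31 ± 0.21, with 0.55 in cKO replicate 2 and 0.0066 in cKO replicate 1, and Tbl1x, a subunit of the corepressor complex, one of -0.27 ± 0.21.

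Genes listed as targets of thyroid hormone had differences of both signs, and the list was not split by the direction of their response. Of 20 target genes 9 had a positive difference, the median was -0.0084, and 5 had groups that did not overlap, 3 with cKO above and 2 with cKO below, against 33.5% of all genes separated and 17.8% with cKO above. The 3 above, Ppargc1a, Rcan2 and Ucp1, were barely separated. Their lowest cKO and highest Het values were 0.00269 and 0.00264, 0.00024 and -0.00024, and 0.0020 and -0.0020. In Cpt1a and Pck1, the 2 below, the highest cKO and lowest Het values were -0.039 and 0.039, and -0.024 and 0.024. Rcan2, Ucp1, Cpt1a and Pck1 were named after their values were seen. The count says little beside such gaps. Gpd2, the mitochondrial glycerol phosphate dehydrogenase, had the largest difference at -0.45 ± 0.27 and Me1, malic enzyme, came next at -0.28 ± 0.25, both with overlapping groups. Gpd2 stood at 0.0056 and -0.27 in cKO replicates 1 and 2, against 0.64 and -0.0056 in Het replicates 1 and 2, so 1 Het array set its size. Ppargc1a, a coactivator of mitochondrial genes, was at 0.14 ± 0.10. The summed log2 value of the list was -0.14 and -0.38 in cKO replicates 1 and 2, against 1.61 and -0.20 in Het replicates 1 and 2, with overlapping groups. Klf9 and Hr, the hairless corepressor gene needed for hair cycling, were named for their role after their values were seen, and had differences of -0.04 ± 0.10 and 0.02 ± 0.09. Of 10 genes of the thyroid axis and gland, Pax8 was largest at 0.13 ± 0.05, followed by the iodide symporter gene Slc5a5 at -0.08 ± 0.06 and Trhr at 0.05 ± 0.04.

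**Figure D4:**
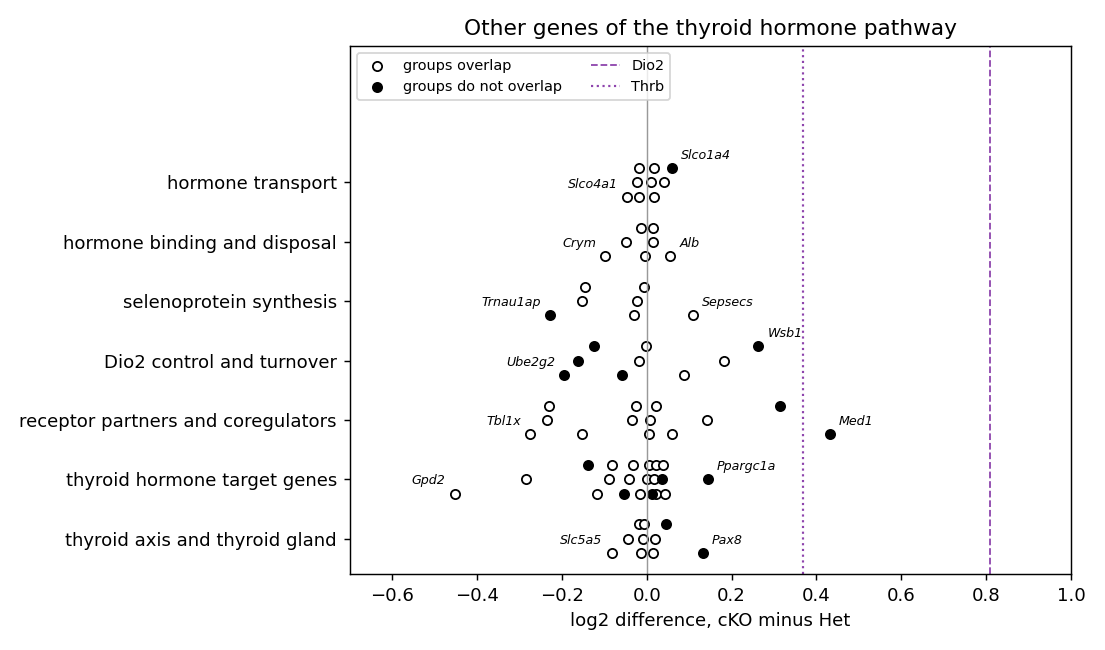
Log2 differences, cKO minus Het, of 75 other pathway genes in 7 lists; filled points have groups that do not overlap, open points overlap, and the lowest and highest gene of each list are named. All lie below the difference of Dio2 (dashed line, 0.81), and Med1 at 0.43 is the 1 gene above that of Thrb (dotted line, 0.37).

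The 5 genes whose values over the 4 arrays lay closest to those of Dio2, by root mean square distance, were Cxcl14, Gpm6a, Pik3r1, Tox4 and Thbd. The chemokine gene Cxcl14 was nearest, at a distance of 0.040, with 0.33 and 0.39 in cKO replicates 1 and 2, against -0.33 and -0.46 in Het replicates 1 and 2. The other distances ran from 0.091 for Gpm6a to 0.117 for Thbd, the thrombomodulin gene. Thbd stood at 0.43 and 0.33 in cKO replicates 1 and 2, against -0.33 and -0.34 in Het replicates 1 and 2. Thrb was 61 in this order, at a distance of 0.24, and the nearest of the other 8 genes described here. With 4 arrays the order describes these values alone.

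Markers of cell types that the sort could hold were summed over each of 9 lists. For 0 of the 9 lists was the sum higher in both cKO arrays than in both Het arrays, and for 3 it was lower, namely dermal papilla, dermal fibroblast, and Schwann and glial markers. The fibroblast sum over 8 genes was -0.12 and -1.14 in cKO replicates 1 and 2, against 0.71 and 1.80 in Het replicates 1 and 2, with Lum at -0.54 ± 0.12 and Col1a2 at -0.37 ± 0.21 as the largest differences. The Schwann and glial sum over 7 genes was -0.55 and -2.26 in cKO replicates 1 and 2, against 1.53 and 1.06 in Het replicates 1 and 2, with Egr2 at -1.35 ± 0.23 and Fabp7 at -0.82 ± 0.08. Without these 2 genes, a choice made after seeing the data, it was 0.29 and -0.66 in cKO replicates 1 and 2, against 0.69 and -0.013 in Het replicates 1 and 2, and the groups overlapped. The fibroblast sum without its 2 largest differences was 0.16 and -0.45 in cKO replicates 1 and 2, against 0.32 and 1.36 in Het replicates 1 and 2, still separated. The dermal papilla sum over 14 genes was -1.08 and -0.80 in cKO replicates 1 and 2, against 2.71 and 0.76 in Het replicates 1 and 2, with Sox2 and then Vcan, at -0.77 ± 0.26, as the largest differences. Without Sox2 that sum was -0.22 and 0.14 in cKO replicates 1 and 2, against 1.75 and -0.11 in Het replicates 1 and 2, and the groups overlapped. Leaving out Vcan as well, a choice made after seeing the data, also gave overlapping groups. This removed the 2 largest differences, both negative, and kept the next largest, that of Wif1, which was positive. A rise of the cKO sums relative to Het was thus built into the choice, so the overlap says little. The sum was then -0.07 and 0.76 in cKO replicates 1 and 2, against 1.13 and -0.26 in Het replicates 1 and 2. Of the 14 markers 7 had separated groups, 3 with cKO above and 4 with cKO below. The 3 above, named after their values were seen, were Wif1 at 0.75 ± 0.22, Lef1 at 0.51 ± 0.23 and Sox18 at 0.40 ± 0.15. The 4 below were Sox2, Vcan, Rspo3 at -0.66 ± 0.13 and Alpl at -0.43 ± 0.08. Rspo3 and Alpl were likewise named after their values were seen.

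Keratinocyte markers stood apart in 1 array, with a sum over 11 genes of -0.67 and 0.13 in cKO replicates 1 and 2, against -1.44 and 4.51 in Het replicates 1 and 2. Its largest differences were those of Krt15, at -0.37 ± 0.31, and Krt5, at -0.35 ± 0.47. The melanocyte sum over 8 genes was -1.06 and 0.84 in cKO replicates 1 and 2, against -1.18 and 2.38 in Het replicates 1 and 2, led by Mlana at -0.30 ± 0.80 and Dct at -0.19 ± 0.26. Dio2 and Thrb were lowest in Het replicate 2, the array with the highest keratinocyte and melanocyte sums. Without that array the difference of Dio2 was 0.72 and that of Thrb 0.32. Endothelial, adipocyte, skeletal muscle and immune sums overlapped between the groups and lay between -0.49 and 0.39 in the cKO arrays and between -0.28 and 0.54 in the Het arrays. Their largest differences were Cdh5 at -0.13 ± 0.17 and Pecam1 at 0.07 ± 0.04 (endothelial), Fabp4 at -0.24 ± 0.30 and Lipe at -0.08 ± 0.05 (adipocyte), Ckm at 0.13 ± 0.10 and Myod1 at 0.11 ± 0.04 (muscle), and Cd74 at -0.06 ± 0.05 and Cd68 at 0.05 ± 0.05 (immune). Because the values hold no level, whether any marker is at or near 0 cannot be read, and the part of other cell types in the Dio2 and Thrb differences was not tested.

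**Figure D5:**
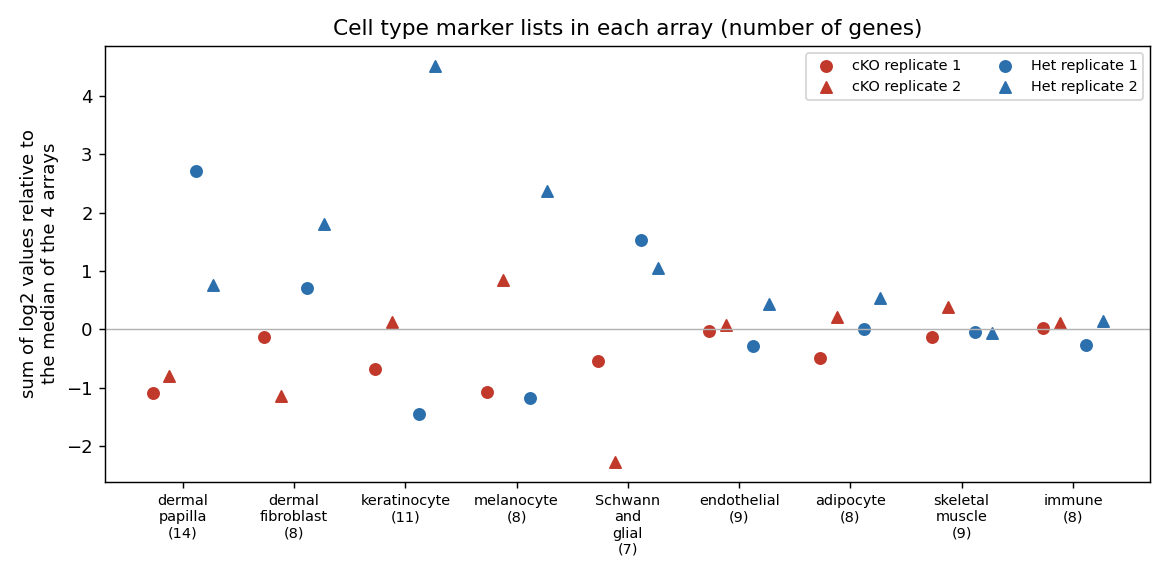
Summed log2 values, relative to the median of the 4 arrays, of 9 cell type marker lists in each cKO array (red, left) and each Het array (blue, right), with the number of genes in brackets. The dermal papilla, fibroblast, and Schwann and glial sums are lower in both cKO arrays. The dermal papilla groups overlap without Sox2 but with Wif1 kept, which was higher in cKO. The Schwann and glial groups overlap without Egr2 and Fabp7. The keratinocyte sum is highest in Het replicate 2, at 4.51.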

How the data were processed

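RNA of 2 cKO and 2 Het samples was measured on Affymetrix mouse arrays. RMA produced the authors' log2 values (submitters' processing notes, no version stated), and 28853 probe sets were deposited. Each has a median of 0 over the 4 arrays within 1e-06; base 2 was assumed because RMA returns it. Array medians lay between -0.0037 and 0.0043. Probe sets were named from the platform annotation (21789 name 1 gene, 1621 several, 5443 none) and averaged per gene. Groups were compared with limma 3.58.1 in R 4.3.3 (lmFit and eBayes, group as only term, two-sided, Benjamini-Hochberg adjustment over 19938 genes, 2 residual and 1.52 prior degrees of freedom), after a test on simulated data. The number of arrays limits precision.

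The members, lists, motifs and tests were chosen with earlier results of these data known. Genes named were the members, Sox2, the 3 largest differences of each pathway list, the 2 largest of each marker list and the 5 genes nearest to Dio2; others are marked in the text. Alternatives were arrays centred on their medians, medians over probe sets, a replicate block, a robust prior, an unmoderated statistic, an SD filter in place of one on brightness (no level is left), other folds, and each array left out.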

Additional observations from a re-analysis of the deposited data

How the results depend on the processing

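With 1 array left out, the difference of Dio2 lay between 0.72 and 0.90 and that of Thrb between 0.30 and 0.44; groups that do not overlap cannot change sign this way, so the sign is no sign of stability. The differences of Thra, Rxra, Dio1 and Slco1c1 changed sign with the array left out. The count of members with separated groups was between 5 and 9 with 1 array left out, where 3 arrays separate more easily. The count of genes at least 1.5-fold apart with separated groups, 129, was between 137 and 451 with 1 array left out (451 without cKO replicate 1 and 372 without Het replicate 2), 26 at 2-fold, and 662 when the limit was lowered to a log2 difference of 0.32. Limma called 0 genes in every alternative fitted to all 4 arrays except 1. The filter that kept genes above the median SD over the 4 arrays called 116, with 0 of the pathway genes. That SD includes the difference between the groups, so the filter was not blind to it. Its count cannot be compared with those of the other settings. The number of genes under an unadjusted p of 0.05 was between 769 and 1647 with 1 array left out, and that of pathway genes between 1 and 8. With the replicate block Dio2 was 0.81, as a balanced block must leave it, and 0 genes were called, while the genes under an unadjusted p of 0.05 numbered 1625 in place of 1053, and 7 pathway genes in place of 3. Over all genes, replicate 1 minus replicate 2 in cKO correlated with the same difference in Het at 0.30; with 2 pairs this does not show that the numbers pair the samples. The causes of these changes were not tested. With 2 arrays per group the test has little reach: Sox2, with the smallest p of all genes, had an adjusted p of 0.345 (limma).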
